A study of Mus musculus with 6 samples.

Results

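The 9 genes described here, Gata1, Klf1, Epor, Ermap, Car1, Car2, Rhd, Icam4 and Tfr2, belong to the early erythroid program. They were taken by symbol from the 47729 genes counted in each library, and each symbol matched 1 Ensembl gene. All 9 were among the 18174 genes with enough counts to be tested, although 2 of them, Car2 and Tfr2, were over the filter's minimum of 0.909 CPM (counts scaled to library size) in both Control libraries. The other 7 entered the test through the RBPJ uninduced and RBPJ 6 days induced libraries, and Rhd and Icam4 had no count in either Control library. RNA was sequenced from DN1a/b cells sorted from the thymus of C57BL/6 mice, the earliest thymocyte subsets, which still hold potential for lineages other than T cells. The 3 groups had 2 libraries each: RBPJ 6 days induced mice, which were RBPJ-deficient until doxycycline restored it (2 mg/ml injected, then 1 mg/ml in the drinking water), RBPJ uninduced mice, described by the submitters as lacking RBPJ, and Control mice, which kept it throughout. RBPJ is the factor that carries Notch signals to DNA. The study thus asked what the cells express without RBPJ and after its return. The alleles and the promoter or Cre behind the deficiency and the induction are left unnamed in the labels, as is whether RBPJ uninduced or Control mice received doxycycline, so the return of RBPJ and the drug cannot be told apart in either comparison with the induced group. Whether replicate libraries are from different animals is not stated, so p-values measure only the spread between these libraries.

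GATA1 is the zinc-finger factor that red cell progenitors depend on. It binds DNA together with TAL1, LMO2, LDB1 and its cofactor FOG1 (Zfpm1), and one of the genes it switches on is Klf1, the erythroid Krüppel-like factor. Together they raise the erythropoietin receptor, iron uptake, heme synthesis and membrane proteins before the bulk of globin is made. Notch signalling through RBPJ commits progenitors in the thymus to the T lineage, and the erythroid program is not part of normal T-cell development. GATA1 is also expressed by megakaryocytes, mast cells and eosinophils, and Car1 and Car2 outside the red cell lineage too.

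Sequences before the transcription starts are shown because GATA and Krüppel-like factors act through short DNA motifs. RefSeq windows of 250 bases before a start on GRCm38.p6 were found for 7 members (9 windows, 3 of them for Tfr2), and not for Car1 and Car2. They were searched on both strands for a GATA motif, with the letters AGATAA, for the Krüppel-like motif CCACACCC or CCCCACCC and for the RBPJ core TGGGAA, none of which overlapped another in these windows, and matches are in capitals. Epor lies on the minus strand, and its window is chr9:21963577-21963826. Rhd lies on the plus strand at chr4:134864286-134864535. Gata1 lies on the minus strand at chrX:7967911-7968160. For Klf1, on the plus strand, the 196 bases ahead of its annotated first exon are shown, chr8:84901732-84901927. For Icam4, also on the plus strand, 30 bases around its match are shown, chr9:21029377-21029406, since that match starts 16 bases inside the first exon annotated in GENCODE M21, in the 5' UTR.
Epor: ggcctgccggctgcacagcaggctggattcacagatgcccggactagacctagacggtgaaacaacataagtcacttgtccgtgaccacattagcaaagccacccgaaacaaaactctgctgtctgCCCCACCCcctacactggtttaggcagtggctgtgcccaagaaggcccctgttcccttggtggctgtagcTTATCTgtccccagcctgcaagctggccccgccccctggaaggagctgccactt
Rhd: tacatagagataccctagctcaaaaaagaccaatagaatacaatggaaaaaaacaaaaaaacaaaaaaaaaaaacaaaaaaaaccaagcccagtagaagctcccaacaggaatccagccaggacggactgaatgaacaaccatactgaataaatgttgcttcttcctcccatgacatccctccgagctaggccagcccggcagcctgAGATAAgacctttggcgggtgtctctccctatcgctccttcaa
Gata1: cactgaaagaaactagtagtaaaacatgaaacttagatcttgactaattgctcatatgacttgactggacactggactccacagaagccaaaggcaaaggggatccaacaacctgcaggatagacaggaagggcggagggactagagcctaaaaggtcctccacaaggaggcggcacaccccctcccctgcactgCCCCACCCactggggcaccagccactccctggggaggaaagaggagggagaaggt
Klf1: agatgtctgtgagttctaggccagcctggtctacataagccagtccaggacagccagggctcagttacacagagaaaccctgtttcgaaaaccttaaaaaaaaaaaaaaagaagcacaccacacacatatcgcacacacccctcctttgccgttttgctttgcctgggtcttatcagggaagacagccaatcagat
Icam4: cagggtgccttcTTATCTcctgcggccagc
AGATAA was present in 3 of the 9 windows, 54 bases before the start in Epor and 43 bases before it in both Icam4 and Rhd, against 9.99% of 32817 mouse promoter windows of the same length. A Krüppel-like match stood in Epor, in Gata1, 55 bases before its start, and in 2 of the Tfr2 windows, against 11.8% of all windows. TGGGAA stood in Ermap and in 1 Tfr2 window, against 21.6% of all. The Klf1 window held none of these letters. The shorter GATA core AGATA, present in 26.6% of all windows, was searched for but not marked. Apart from the AGATAA matches, it stood 243 bases before the start in Rhd, 97 in Icam4 and 87 in 1 Tfr2 window. Forms with other letters, such as TGATAA, were not searched for or marked. The printed Klf1 stretch holds TGATAA on the other strand, as ttatca. A match describes the letters only and marks no site.

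Total counts ran from 5098927 to 12932928 per library. Rbpj had 198 and 203 CPM (counts scaled to the library's TMM-adjusted total, as edgeR's cpm gives them) in the induced libraries, 28.2 and 29.98 CPM in the uninduced libraries and 74.1 and 72.9 CPM in the Control libraries, so its mean in the uninduced libraries was 0.396 times that in the Control libraries and its mean in the induced libraries 2.73 times. Which exons the deficiency removes is not given, so these counts do not show whether working RBPJ was absent from uninduced cells. Of the surface markers of the DN1 stage, Kit was between 372 and 631 CPM, Cd44 between 196 and 390.2 CPM and Cd24a between 119 and 273 CPM in the 6 libraries. Flt3 had 176 and 149 CPM in the induced, 56.2 and 20.7 CPM in the uninduced and 168 and 88.3 CPM in the Control libraries (adjusted p = 0.0525 by edgeR in uninduced against Control cells). Il2ra and Il7r were at 0.522 and 2.96 CPM in uninduced replicate 1 and at 12.8 CPM or more in the other 5 libraries. Libraries stood apart within groups. Control replicate 2 had counts in 30343 genes at 5311391 counts, against 21529 genes at 12932928 counts in Control replicate 1, and it held 80.0 CPM of the later thymocyte gene Cd8a against 3.20 CPM. RBPJ uninduced replicate 2 had a summed level of 8 B-lineage markers of 806 CPM, against 32.3 CPM in replicate 1. Results that rest on these libraries are therefore given with and without them.

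All 9 genes were lowest in Control cells, highest in RBPJ uninduced cells and in between in RBPJ 6 days induced cells, with no overlap of libraries between any of the groups. Between RBPJ uninduced and Control cells, 8 of the 9 rose and none fell by edgeR's quasi-likelihood test (adjusted p under 0.05). Those 8 were Car2 and Tfr2 and 6 of the 7 genes under the filter's minimum in at least 1 Control library. These 7 had to be over it in a library of another group to be tested, so the count and the median describe the genes and support nothing further. Of all tested genes 2.49% rose and 2.93% fell. The median log2 fold change of the 9 was 6.23, or 4.54 with Rhd and Icam4 at their lower bounds, against -0.02 over all tested genes. Leaving out 1 library moved it to between 5.21 (without Control replicate 1) and 8.23 (without Control replicate 2). Both uninduced libraries were above both Control libraries in 9 of 9 genes, as they were in 22.1% of all genes. The rise is relative to total RNA: in bulk cells, a larger share of cells that express a gene and more of its RNA per cell cannot be told apart.

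**Figure D1:**
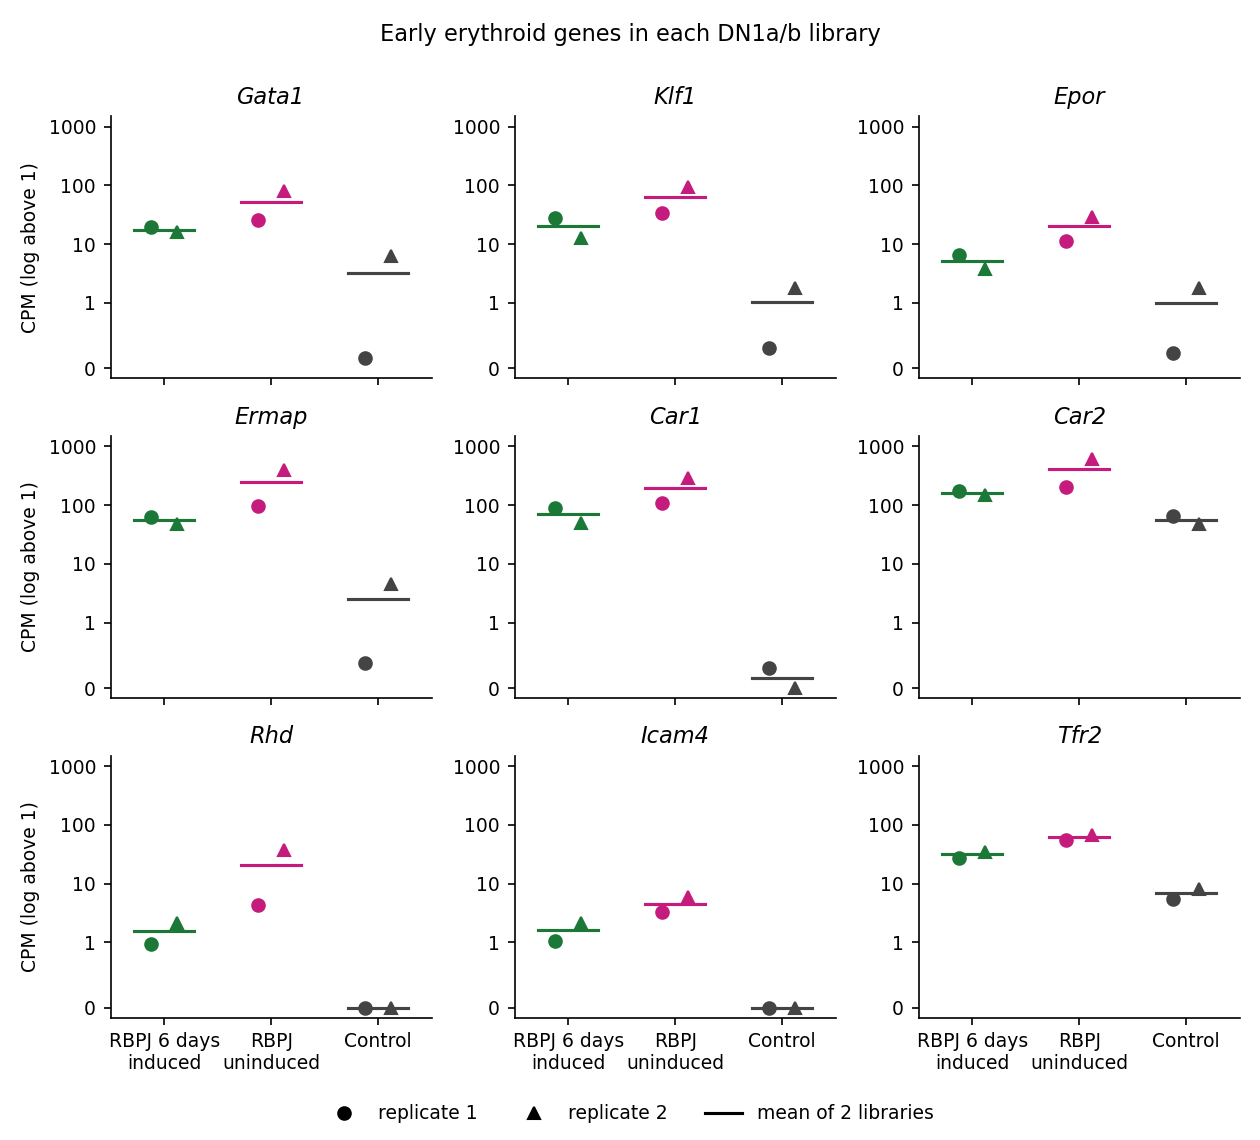
Level of each of the 9 genes (CPM, linear from 0 to 1 and logarithmic above) in the 2 libraries of each group. Circles are replicate 1, triangles replicate 2 and lines the mean of the 2 libraries. In every panel the induced libraries lie between the uninduced and the Control libraries, and uninduced replicate 2 is above replicate 1.

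Of the 2 transcription factors, Klf1 (chromosome 8, 84901928 to 84905291, plus strand, GRCm38) had 28.3 and 12.7 CPM in the induced libraries, 33.4 and 94.96 CPM in the uninduced libraries and 0.305 and 1.77 CPM in the Control libraries. Its counts were 4 and 10 in Control, so the gene was close to undetected there. It rose by 6.23 ± 0.84 on the log2 scale (SE, n = 2 each) in uninduced against Control cells, with an adjusted p of 0.00424 by edgeR. It passed under each of the 12 alternative settings (fold changes from 5.21 to 7.56), which include leaving out each library. Gata1 (chromosome X, 7959260 to 7978071, minus strand) had 19.3 and 16.1 CPM in the induced, 26.1 and 80.1 CPM in the uninduced and 0.152 and 6.37 CPM in the Control libraries. Its Control replicates were thus further apart than those of any other member with counts in both, 2 counts in replicate 1 and 36 in replicate 2. The fold change in uninduced against Control cells was 4.23 ± 1.07 (log2, SE, n = 2 each, 95% interval 1.83 to 6.64), and its adjusted p of 0.0539 by edgeR missed the threshold. Leaving out 1 library, the fold change was lowest at 3.10 without Control replicate 1 and highest at 8.23 without Control replicate 2. Such a fit leaves 1 library in a group and so drops that group's own spread. Over all 12 alternatives the adjusted p ran from 1.61e-19 to 0.187.

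Epor, the erythropoietin receptor (chromosome 9, 21958897 to 21963506, minus strand), carries the survival signal of red cell progenitors through JAK2 and STAT5. It had 6.45 and 3.73 CPM in the induced libraries, 11.1 and 29.5 CPM in the uninduced libraries and 0.228 and 1.77 CPM in the Control libraries. The rise in uninduced against Control cells was 4.54 ± 0.91 (log2, SE, n = 2 each), with an adjusted p of 0.0233 by edgeR. Without Control replicate 1 the fold change was 3.56 and no longer passed (adjusted p = 0.0679), nor did it pass in a fit of the 4 compared libraries alone (adjusted p = 0.102), within a range from 4.03e-08 to 0.102 over the 12 alternatives. Tfr2, transferrin receptor 2 (chromosome 5, 137569840 to 137587481, plus strand), senses iron-loaded transferrin and can associate with the erythropoietin receptor. It had 27.8 and 35.3 CPM in the induced, 55.1 and 67.7 CPM in the uninduced and 5.56 and 8.14 CPM in the Control libraries. These were the closest replicates of the 9 genes in the uninduced group. Tfr2 rose by 3.19 ± 0.32 (log2, SE, n = 2 each, adjusted p = 0.00128 by edgeR), and it passed under all 12 alternatives, from 2.94 to 3.36.

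The 2 carbonic anhydrases, which interconvert carbon dioxide and bicarbonate, lie in a cluster on chromosome 3 (Car1 from 14766216 to 14808368 on the minus strand, Car2 from 14886273 to 14900770 on the plus strand). Car1 had 91.1 and 50.6 CPM in the induced libraries, 110.1 and 287 CPM in the uninduced libraries and 0.305 and 0 CPM in the Control libraries. Only 4 counts of Car1 were seen in the 2 Control libraries together, against 3212 in the 2 uninduced libraries, so the size of the ratio rests on those 4. The pooled ratio of uninduced to Control was 1025, with an exact 95% counting interval from 399.7 to 3762. Its fitted log2 fold change was 9.81 ± 0.78 (SE, n = 2 each, adjusted p = 0.000387 by edgeR), and it passed under every alternative. Reads of Car1 could also come from the processed pseudogene Gm5843, which matches 476 of its bases at 97.9% identity but had at most 3 counts in any library.

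Per kilobase of exon, Car2 had the highest level of the 9 in Control cells. It had 173 and 147 CPM in the induced, 208 and 609 CPM in the uninduced and 65.0 and 47.8 CPM in the Control libraries. The rise in uninduced against Control cells was the smallest of the 8, at 2.85 ± 0.43 (log2, SE, n = 2 each, adjusted p = 0.00706 by edgeR), and without uninduced replicate 2 it was 1.85 (adjusted p = 0.000126). It failed only in the fit of the 4 compared libraries (adjusted p = 0.0583, the highest of a range that began at 4.07e-23).

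The remaining 3 genes encode surface proteins of the red cell, each of which carries a blood group antigen in humans. Ermap (chromosome 4, 119175457 to 119190011, minus strand) is a butyrophilin-like membrane protein. It had 63.4 and 48.5 CPM in the induced libraries, 98.8 and 393 CPM in the uninduced libraries and 0.381 and 4.60 CPM in the Control libraries. The replicates of both the uninduced and the Control group were wide apart, but the groups did not overlap. Ermap rose by 6.96 ± 0.95 (log2, SE, n = 2 each, adjusted p = 0.00452 by edgeR), from 5.66 without uninduced replicate 2 to 9.18 without Control replicate 2. It failed only in the fit of the 4 compared libraries (adjusted p = 0.0503, where the lowest over the alternatives was 1.96e-76).

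Rhd (chromosome 4, 134864536 to 134896172, plus strand), which encodes the Rh protein of the red cell membrane, had 0.971 and 2.14 CPM in the induced libraries, 4.35 and 37.7 CPM in the uninduced libraries and no count in the Control libraries. Against a floor of 3 counts per Control library it was at least 55.3-fold higher in uninduced cells, and at least 11.5-fold higher with uninduced replicate 2 left out (adjusted p = 0.0132 by edgeR with all libraries and 0.0417 without that one). The call was lost with the 4 compared libraries alone (adjusted p = 0.0812). Icam4 (chromosome 9, 21029373 to 21030595, plus strand) is an adhesion molecule of erythroblasts that binds integrins. It had 1.06 and 2.14 CPM in the induced, 3.30 and 5.91 CPM in the uninduced and no count in the Control libraries, the lowest mean of the 9 per kilobase of exon in uninduced cells, although Rhd was lower in replicate 1. It was at least 12.1-fold higher in uninduced than in Control cells (adjusted p = 0.0394 by edgeR). That call was lost in 5 of 12 alternatives, 4 of which leave out 1 library: Control replicate 1 (adjusted p = 0.155), Control replicate 2 (0.0861), uninduced replicate 2 (0.0695) or induced replicate 2 (0.0607), with a range from 0.00106 to 0.155. All 1110 exonic bases of Icam4 lie inside Gm47079, an antisense gene on the minus strand, and since the strand setting of the counting is not given, reads of the 2 cannot be told apart.

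**Figure D2:**
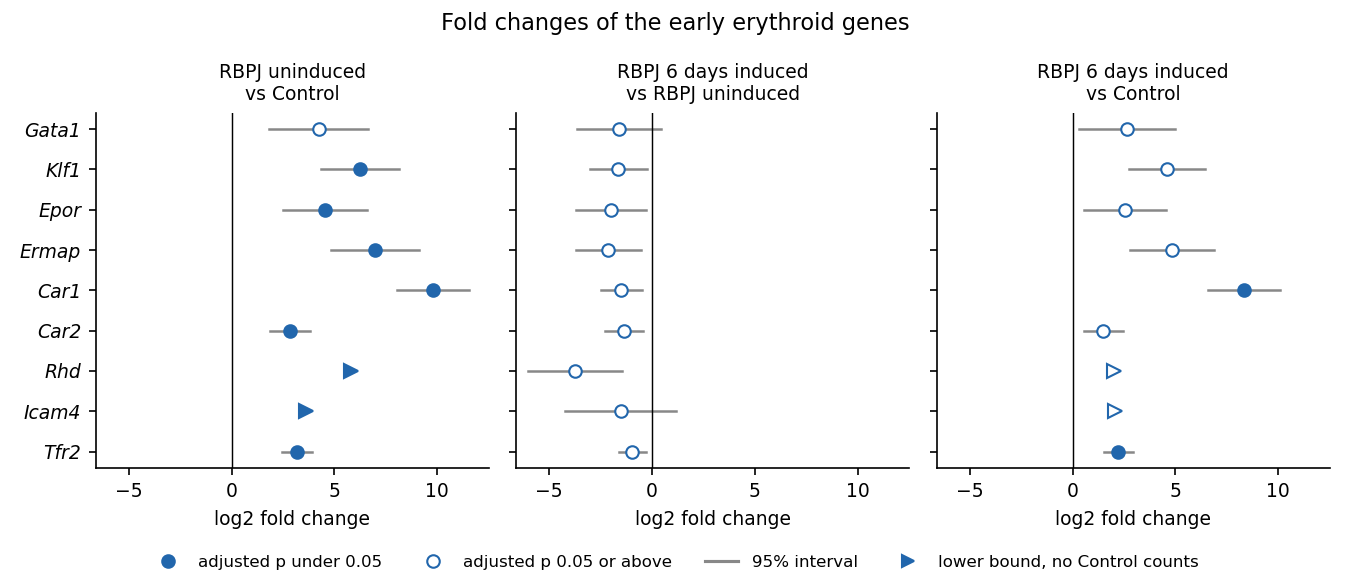
Log2 fold change of each gene in the 3 comparisons, with 95% intervals as lines. Filled symbols have an adjusted p under 0.05 by edgeR, and arrowheads mark lower bounds for Rhd and Icam4, which had no Control counts. In RBPJ uninduced vs Control 8 symbols are filled, in RBPJ 6 days induced vs RBPJ uninduced all 9 lie below 0 with none filled, and in RBPJ 6 days induced vs Control Car1 and Tfr2 are filled.

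After 6 days of induction, every one of the 9 genes was lower than in uninduced cells, but none passed the test. The 2 induced libraries lay below the 2 uninduced libraries in 9 of 9 genes, an arrangement found in 21.8% of all tested genes, and 0 of 9 were called lower or higher, where 0.413% of all tested genes were lower and 1.55% higher. Adjusted p-values ran from 0.115 for Rhd to 0.604 for Icam4 by edgeR, and 7 of the 9 had an unadjusted p under 0.05 (15.4% of all genes did). DESeq2, which also called more genes lower than edgeR over all tested genes, called 3 of the 9 lower, Car1, Car2 and Rhd. The median log2 fold change was -1.59, against -0.03 over all genes. Mean levels in induced cells were 7.41% (Rhd) to 51.4% (Tfr2) of those in uninduced cells, with a median of 33.3%.

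The unadjusted 95% intervals of Gata1 and Icam4 included 0, and those of the other 7 genes did not. For Klf1 the difference was -1.65 (95% interval -3.04 to -0.26, adjusted p = 0.229 by edgeR) and for Gata1 it was -1.59 (-3.63 to 0.45, adjusted p = 0.463). Ermap differed by -2.14 (-3.71 to -0.56, adjusted p = 0.172), Epor by -2.00 (-3.72 to -0.28, adjusted p = 0.241) and Rhd by -3.75 (-6.05 to -1.46). The narrowest interval was that of Tfr2, from -1.61 to -0.31 around -0.96 (adjusted p = 0.143). Car1 and Car2 differed by -1.49 and -1.36 (adjusted p = 0.142 each).

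How far apart induced and uninduced cells were depended on the uninduced library. All 9 genes were higher in uninduced replicate 2 than in replicate 1, by 1.23-fold (Tfr2) to 8.67-fold (Rhd) with a median of 2.84-fold, and their summed level was 1605 CPM against 549.7 CPM. Set against replicate 1 alone, the induced means were 35.8% to 76.9%, and against replicate 2 alone 4.13% to 46.7%. With replicate 2 left out, the median log2 difference was -0.79, and with replicate 1 left out it was -2.12. Of 8 mature red cell markers, which red cells express late, 5 had no count in replicate 1 (Hba-a2, Hbb-bs, Hbb-bt, Alas2 and Epb42), while Hba-a1 had 0.348 CPM, Tspo2 1.04 CPM and Slc4a1 2.09 CPM, beside 33.4 CPM of Klf1 and 110.1 CPM of Car1. In replicate 2 the 8 ran from 1.34 CPM (Slc4a1, the one that was lower there) to 33.8 CPM (Hbb-bs).

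Compared with Control cells, the induced cells still held more of all 9 transcripts, with no overlap of libraries in 9 of 9 genes (20.8% of all tested genes). Here too 7 of the 9, Car1 among them, were under the filter's minimum in at least 1 Control library. The counts of genes therefore describe the genes and support nothing further. Car1 and Tfr2 passed the test and none fell, where 0.187% of all tested genes rose. No gene among the 18174 was called lower by edgeR in this comparison, though 940 had an unadjusted p under 0.05 in either direction and DESeq2 called 49 lower. Car1 was 8.32 ± 0.78 higher (log2, SE, n = 2 each, adjusted p = 0.00442), a pooled ratio of 335 with an exact 95% counting interval from 130.7 to 1232, and it passed under all alternatives. Tfr2 was 2.23 ± 0.31 higher (log2, SE, n = 2 each, adjusted p = 0.0294), a call that was lost without Control replicate 1 (adjusted p = 0.123) and without Control replicate 2 (0.0531), in a range from 1.06e-07 to 0.123.

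The other 7 genes did not pass in induced against Control cells. Klf1 differed by 4.58 (95% interval 2.75 to 6.42, adjusted p = 0.0722 by edgeR) and Ermap by 4.82 (2.79 to 6.85, adjusted p = 0.09), and each passed in 8 of the 12 alternatives. Gata1 differed by 2.64 (0.32 to 4.96, adjusted p = 0.822), Epor by 2.54 (0.56 to 4.53, adjusted p = 0.659) and Car2 by 1.5 (0.56 to 2.43, adjusted p = 0.364). Rhd was at least 4.10-fold and Icam4 at least 4.22-fold higher (adjusted p = 0.424 and 0.356), bounds that moved to between 2.56-fold and 6.82-fold for Rhd and between 2.79-fold and 7.01-fold for Icam4 without induced replicate 2 and without Control replicate 2. The count of 2 genes depended on single libraries: it was 1 without Control replicate 1, 4 without either induced library, 7 without uninduced replicate 1 and 5 without uninduced replicate 2. The 3 comparisons share libraries in pairs, so they are not independent of each other.

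Ranked by CPM per kilobase of exon, the carbonic anhydrases led in the uninduced cells, Car2 at 169 ± 117 and Car1 at 159 ± 100 (SD, n = 2), with overlapping libraries. Ermap (46.4 ± 39.3), Klf1 (41.9 ± 28.5), Gata1 (21.8 ± 15.7), Tfr2 (14.2 ± 2.0), Rhd (13.2 ± 14.8) and Epor (10.2 ± 6.5) followed, each overlapping the next, and Icam4 was lowest at 4.15 ± 1.66. In induced cells Car2 (65.9 ± 7.7) and Car1 (56.8 ± 23.0) again overlapped and stood above Klf1 (13.4 ± 7.2) and Ermap (10.6 ± 2.0). Tfr2 (7.28 ± 1.22) and Gata1 (7.25 ± 0.91) came next, then Epor (2.56 ± 0.97), Icam4 (1.44 ± 0.69) and Rhd (0.977 ± 0.520). In Control cells Car2 at 23.3 ± 5.0 was apart from Tfr2 at 1.58 ± 0.42, and the rest lay at or below 1.34.

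The other genes of the erythroid program were read from 6 lists with 91 entries. As with the members, list genes near 0 in Control cells entered the test through the other groups. Examples are Cldn13, with 0 and 1 counts in the Control libraries, and Mt2, with 1 and 0. The list counts and medians that follow therefore describe the genes and support nothing further. Of 17 tested GATA1 partners and progenitor factors, 4 rose in uninduced against Control cells and none fell. They were the progenitor factor Gata2 (4.21 ± 0.33 on the log2 scale, adjusted p = 0.000387 by edgeR), the GATA1 cofactor Zfpm1 (2.37 ± 0.38, adjusted p = 0.00856), Tal1 (2.61 ± 0.27, adjusted p = 0.00133) and Lmo2 (2.14 ± 0.22, adjusted p = 0.00133). Gata2 had 167 and 167 CPM in the induced libraries, 283 and 189.6 CPM in the uninduced libraries and 9.21 and 17.0 CPM in the Control libraries. It and Lmo2 also passed in induced against Control cells, at 3.71 (adjusted p = 0.00309) and 1.54 (adjusted p = 0.0288), though Lmo2 was lost without either Control library (adjusted p = 0.0958 and 0.112). The count of 2 there became 4 without uninduced replicate 1, uninduced replicate 2 or induced replicate 1. Spi1, which encodes the myeloid factor PU.1, had 63.0 and 67.8 CPM in induced, 48.3 and 42.3 CPM in uninduced and 69.8 and 57.1 CPM in Control libraries and passed in no comparison. The median log2 fold change of the list in uninduced against Control cells was 0.21.

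Genes of erythropoietin signalling moved in both directions. Of 13 tested, the signal transducer Stat5a rose in uninduced against Control cells (1.01, adjusted p = 0.0198 by edgeR), while 3 that cytokine signals induce fell: the kinase gene Pim1 by 2.29 on the log2 scale (adjusted p = 0.000461) and the feedback inhibitors Cish by 3.02 (adjusted p = 0.033) and Socs3 by 1.39 (adjusted p = 0.0303). Pim1 had 197 and 195 CPM in the induced libraries, 84.7 and 66.0 CPM in the uninduced libraries and 358 and 379 CPM in the Control libraries, and it rose in induced against uninduced cells (1.38, adjusted p = 0.00801). Without Control replicate 2, Stat5a (adjusted p = 0.153), Cish (0.12) and Socs3 (0.153) no longer passed, and Stat5a was also lost without Control replicate 1 (0.0635). The count of genes that fell was 1 without Control replicate 2 and 5 without uninduced replicate 2.

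In heme synthesis and iron uptake, 3 of 13 tested genes rose in uninduced against Control cells and none fell. Cpox, an enzyme of the heme pathway, rose by 3.0 (adjusted p = 0.0098 by edgeR). The iron reductase gene Steap3 rose by 1.70 (adjusted p = 0.0176) and Tfrc, the main transferrin receptor, by 1.01 (adjusted p = 0.0365). The count was 7 without uninduced replicate 1, 5 without either induced library and 0 without Control replicate 2, where Cpox had an adjusted p of 0.0518. Steap3 was also lost without Control replicate 1 (adjusted p = 0.0795) and Tfrc without uninduced replicate 2 (0.0599). With all libraries Tfrc alone of this list passed by edgeR in induced against uninduced cells: it had 117 and 145 CPM in the induced and 243 and 317 CPM in the uninduced libraries, a fall of 1.10 on the log2 scale (adjusted p = 0.0465), which was lost without induced replicate 1 (0.372) or 2 (0.11). Without uninduced replicate 1, 6 genes of the list were lower in induced than in uninduced cells, and with DESeq2 3 were.

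Of 18 tested genes of the red cell membrane and cytoskeleton, 5 rose in uninduced against Control cells, and 1 fell, Cd44, an adhesion receptor that is not restricted to red cells. The water channel gene Aqp1 rose by 5.57 (adjusted p = 0.00193 by edgeR), Kel, a blood group gene, by 6.08 (adjusted p = 0.00706) and the ankyrin gene Ank1 by 5.16 (adjusted p = 0.0169). Cd44 fell by 0.89 (adjusted p = 0.0188), a call lost without Control replicate 1 (0.124) or induced replicate 1 (0.0503). Without uninduced replicate 1, 9 genes of this list rose, and without Control replicate 1, 3 did. Of the globin list, only 4 genes had enough counts to be tested and none passed in any comparison by edgeR or DESeq2, with 0 at an unadjusted p under 0.05. Without uninduced replicate 1, 1 globin gene was higher in uninduced than in Control cells and 2 were lower in induced than in uninduced cells.

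Among 20 other early and late erythroid genes, 8 rose in uninduced against Control cells and none fell, with a median log2 fold change of 4.07, or 2.55 without uninduced replicate 2. Mfsd2b, a sphingolipid transporter of red cells and platelets, had 92.1 and 85.9 CPM in the induced libraries, 87.5 and 86.8 CPM in the uninduced libraries and 1.75 and 2.12 CPM in the Control libraries. It rose by 5.51 ± 0.27 in uninduced (adjusted p = 4.17e-05 by edgeR) and by 5.54 ± 0.27 in induced cells (adjusted p = 7.88e-05) against Control. The difference between induced and uninduced was 0.03 with an adjusted p of 0.969, and the libraries of the groups overlapped there. Apoe (3.81 and 3.18) and Samd14 (5.99 and 5.65) also passed in uninduced and in induced against Control cells, Samd14 not without Control replicate 1 in induced cells (adjusted p = 0.0712). Ces2g, a carboxylesterase gene, rose by 6.69 in uninduced against Control cells (adjusted p = 0.00395). Without uninduced replicate 1, 13 genes of this list rose in uninduced and 7 in induced against Control cells, where 3 did with all libraries, and without uninduced replicate 2, induced replicate 1 or induced replicate 2 the count in induced cells was 6, 5 and 6.

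**Figure D3:**
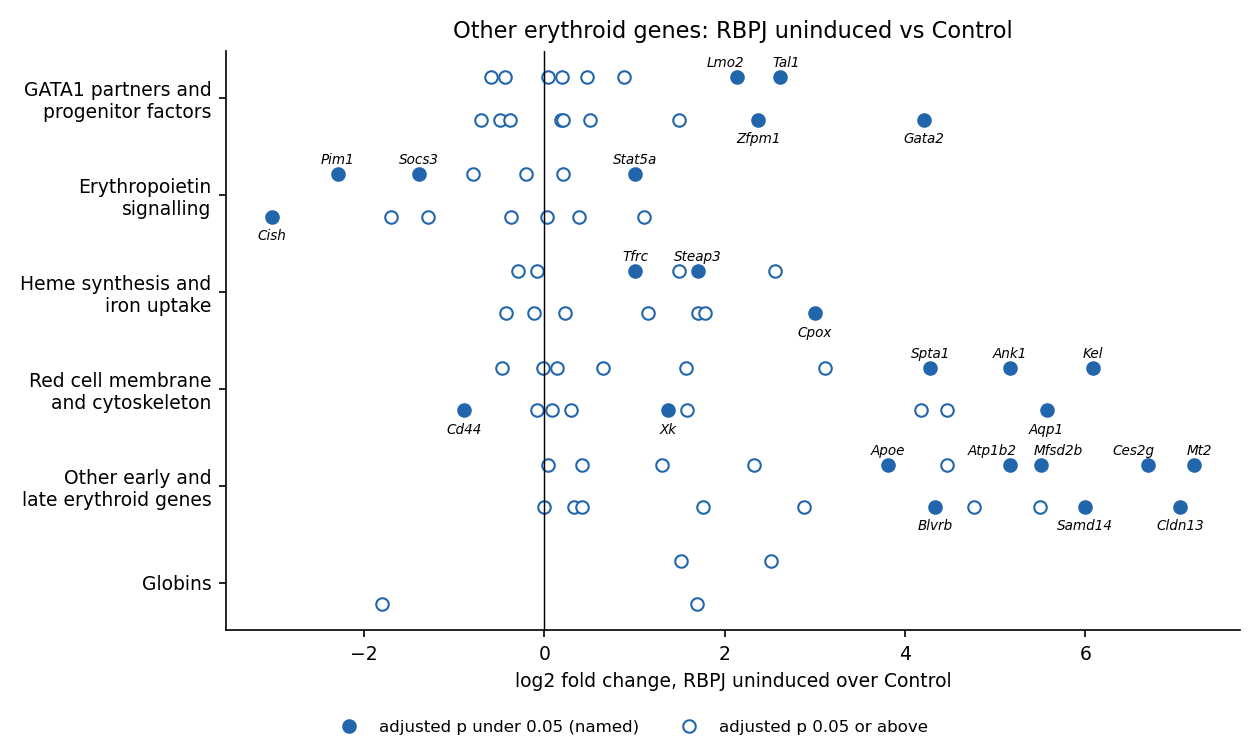
Log2 fold change in RBPJ uninduced vs Control for each tested gene of the 6 erythroid lists. Filled symbols passed the test by edgeR and are named, open ones did not, and the fitted folds of Cldn13 and Mt2 rest on 1 Control count each. In erythropoietin signalling 3 of the 4 named genes lie below 0, and no globin is named.

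Markers of other cell types moved with the 9 genes, and their part in the result was not tested. Markers near 0 in a group entered the test through the groups where they were higher. Counts of called markers therefore describe the genes and support nothing further. The summed level of 10 mast cell and basophil markers was 225 and 179 CPM in the induced, 760 and 494 CPM in the uninduced and 76.0 and 54.0 CPM in the Control libraries, and 6 of the 8 tested rose in uninduced against Control cells (3 without Control replicate 2). The mast cell protease Tpsab1 and the IgE receptor gene Fcer1a were at 0 in both Control libraries and above it in both uninduced libraries. The basophil protease Mcpt8 was higher by 2.99 on the log2 scale in uninduced than in Control cells. Its libraries did not overlap between these groups, but it did not pass (adjusted p = 0.163 by edgeR). The basophil protease Prss34 had 1 count, in Control replicate 1, and none in any other library, too few to compare groups. The 9 neutrophil markers, led by the granule enzyme gene Mpo, summed to 669 and 1520 CPM in the induced, 4263 and 3275 CPM in the uninduced and 511 and 459 CPM in the Control libraries, and 4 of the 7 tested rose. The late granule genes Ltf, Camp and Ngp and the neutrophil gene S100a9 were at 0 in uninduced replicate 1. In uninduced replicate 2 they had 31.8, 7.36, 22.1 and 54.4 CPM, in that order. The 13 megakaryocyte and platelet markers summed to 154 and 175 CPM in the induced, 263 and 134 CPM in the uninduced and 71.4 and 88.1 CPM in the Control libraries. Of 10 tested, 3 were higher in uninduced than in Control cells, Itga2b, Pf4 and Gp1ba, and the platelet gene Ppbp was at 0 in all 6 libraries. Pf4 and Gp1ba no longer passed with library totals alone (adjusted p = 0.0617 and 0.0662 by edgeR) or with the 4 compared libraries alone (0.224 and 0.144). With the replicate number as a block they were also lost (adjusted p = 0.0517 and 0.0535 by edgeR). Both were lost again without either Control library or either induced library, and Gp1ba also without uninduced replicate 2. In uninduced cells, the mast cell, neutrophil and megakaryocyte sums were higher in replicate 1, while those of the 9 early erythroid genes and of the mature red cell markers were higher in replicate 2. Mature red cell markers summed to 15.01 and 9.41 CPM in the induced, 3.48 and 97.3 CPM in the uninduced and 6.70 and 21.4 CPM in the Control libraries. Of 8 tested, 0 passed in uninduced against Control cells by edgeR, 1 had an unadjusted p under 0.05, 1 was higher with DESeq2 and 2 were higher without uninduced replicate 1. T-lineage markers ran the other way, at 468 and 526 CPM in the induced, 49.0 and 78.5 CPM in the uninduced and 930 and 1431 CPM in the Control libraries, and 7 of 14 tested fell. Their median log2 fold change in uninduced against Control cells was -4.1. It was -1.72 without Control replicate 2 and -4.59 without Control replicate 1, where 15 were tested. The eosinophil sum stayed between 20.3 and 43.7 CPM in the 6 libraries with none of 4 called in uninduced against Control cells. Siglecf made up most of that sum except in uninduced replicate 2, where it had 6.58 CPM. There the granule genes Epx and Prg2 had 8.80 and 3.12 CPM, and both were at 0 in uninduced replicate 1. The 8 B-lineage markers summed to 806 CPM in uninduced replicate 2 and to between 7.16 and 44.4 CPM in the others.

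**Figure D4:**
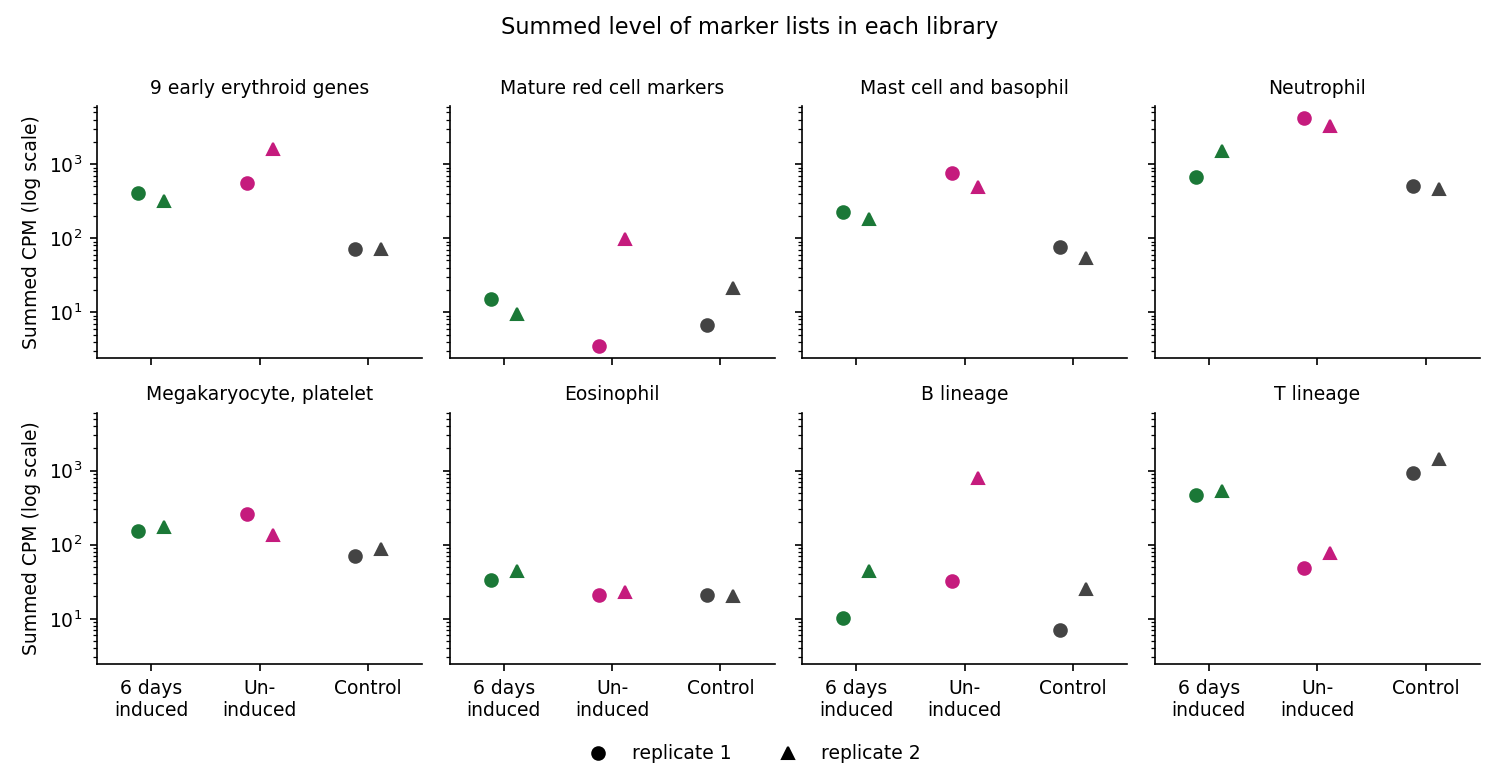
Summed CPM (log scale) of the 9 early erythroid genes and of marker lists of other cell types in each library, circles for replicate 1 and triangles for replicate 2. The early erythroid, mast cell and neutrophil sums are highest in the 2 uninduced libraries, and the T-lineage sum is lowest there.

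The genes with a pattern most like that of a member were found by Pearson correlation of log2(CPM + 1) over the 6 libraries among 11460 tested genes whose mean log2 CPM was 1 or more. The members themselves, pseudogenes, gene models and clone-named genes were left out of these 11460. They describe these libraries only, which share their groups. For Klf1 they were Basp1 (r = 0.997), Trib2, Ces2g, Ccdc88a and Abcb4, of which Ces2g was on the erythroid lists. For Gata1 they were Atp6v0a1 (r = 0.997), Plscr1, Apobec1, Mmp14 and Clstn1, and for Car1 Emilin2 (r = 0.998), Pcyt1a, Sat1, Anxa9 and Tnfaip2. A correlation above 0.95 was found for 58 genes with Gata1, 103 with Klf1 and 115 with Car1. Klf1 itself correlated at 0.86 (Rhd) to 0.99 (Ermap) with the other members.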

How the data were processed

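Sequencing measured RNA of sorted mouse thymus DN1a/b cells in 6 libraries, grouped by title. The deposited files hold raw read counts, 1 whole number per Ensembl gene. The build mm10 and the tools HISAT2, HTSeq and StringTie are listed, per the submitters' processing notes, with no versions or roles. The strand setting is not stated. Names and coordinates came from GENCODE M21 on GRCm38, which matched 47310 of 47729 gene IDs, and promoter sequences from RefSeq on GRCm38.p6.

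edgeR 4.0.16 in R 4.3.3 was used for testing: filterByExpr (minimum count 10, minimum total 15) kept 18174 genes, libraries were scaled by TMM (factors 0.824 to 1.13), and all 6 entered 1 quasi-likelihood fit with group means (3 residual degrees of freedom). One spread is assumed for the groups, yet chi-square per degree of freedom between replicates was 16.4 in induced, 54.1 in uninduced and 20.6 in Control libraries. p-values were adjusted by Benjamini-Hochberg over every tested gene, with a threshold of 0.05. Folds against a group with no counts are lower bounds against a floor of 3 counts per library. Bounds and counting intervals cover counting error only. Near-identical copies were sought with blastn 2.17.0 (at least 95% identity over 100 bases). The fit was tested on simulated counts.

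The members and lists were chosen with earlier results of these data known. Each member is named in every comparison, and from the other lists genes past the threshold were named, up to 4 in a list by p. A few list genes are not reported here, and the list counts and sums leave them out. Spi1, Cd44, Cldn13, Mt2, Alas2, the globins, the DN1 markers, Cd8a and single markers of other cell types were picked with their values known. The 12 alternatives were DESeq2 1.42.0, other size factors, no filter, leaving out each library, a replicate block, and fitting the 4 compared libraries alone. Leaving out 1 library removes its group's own spread, so a call gained or kept there is not firmer than the main call.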

Additional observations from a re-analysis of the deposited data

How the results depend on the processing

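Of 324 fold changes of the 9 genes under the 12 alternatives, none changed direction, 259 kept their side of the threshold, 12 lost it and 53 gained it. With only the 4 compared libraries, 3 members were higher in RBPJ uninduced than in Control cells (Klf1, Car1 and Tfr2) in place of 8, and 5 were higher in induced than in Control cells in place of 2. Without a low-count filter 8 were higher in induced than in Control cells and 6 were lower in induced than in uninduced cells, and with DESeq2 these were 5 and 3. Leaving out 1 library gave 7 to 9 higher in uninduced than in Control cells, 0 to 6 lower in induced than in uninduced cells and 1 to 7 higher in induced than in Control cells. Without the filter 35696 genes were tested and the spread of each was taken wholly from the trend over genes.

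Over all genes, in uninduced against Control cells 452 were higher and 533 lower. These were 284 higher with library totals alone, 725 and 815 without the filter, 814 and 1045 with DESeq2, 93 and 126 with 4 libraries, and 185 to 1007 and 260 to 1165 when leaving out 1 library. In induced against uninduced cells 282 were higher and 75 lower. These were 34 lower with library totals, 675 and 314 without the filter, 746 and 492 with DESeq2, 70 and 1 with 4 libraries, and 156 to 951 and 15 to 549 when leaving out 1 library. In induced against Control cells 34 were higher and 0 lower. These were 1 lower with library totals, 247 and 57 without the filter, 179 and 49 with DESeq2, 142 and 35 with 4 libraries, and 20 to 266 and 0 to 71 when leaving out 1 library.

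The replicate numbers are shared between groups by number only: deviations of same-numbered libraries from their group means correlated at -0.03, 0.02 and 0.01 over 18174 genes. With the replicate number as a block, 9 members were higher in uninduced than in Control cells (Gata1 adjusted p = 0.00542), 1 was lower in induced than in uninduced cells (Rhd, adjusted p = 0.0379) and 4 were higher in induced than in Control cells. Over all genes the block gave 133 lower in induced against uninduced cells, and 101 higher and 7 lower in induced against Control cells.

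A floor of 3 counts corresponds to 0.228 to 0.531 CPM in the 6 libraries. With 2 libraries a group, an exact permutation test of 1 gene cannot go below a two-sided p of 0.333.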
